A study of Mus musculus with 12 samples.

Results

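Cadherins are calcium-dependent adhesion proteins that join neighbouring cells, and protocadherins are their largest group of relatives in the nervous system. They were measured in mouse medulloblastomas of the SHH (Sonic Hedgehog) subgroup as all array probes whose deposited symbol was Cdh followed by a number or began with Pcdh. This gave 91 of the 30869 gene symbols on the array, 23 Cdh and 68 Pcdh genes, read by 143 of the 45281 probes. In all, 3 groups of 4 tumours were compared: A1G metastatic and A1G primary tumours, both from Math1-cre;A1G;Ptch1+/- mice, and Ptch1het tumours from Ptch1+/- mice. All 3 groups thus carry a heterozygous loss of Ptch1, the hedgehog receptor that restrains the pathway. Math1-cre is active in the granule neuron lineage, and the series describes the A1G tumours as driven by ATOH1 together with hedgehog signalling. The labels do not expand A1G, and they give neither the age of the mice nor the site of the metastases. The genotype entry of A1G metastatic replicates 2 and 3 is worded differently from that of replicates 1 and 4. The labels do not say that replicates came from separate mice, so p-values measure the spread between these samples, which may in part be technical.

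Classical cadherins bind the same cadherin on the next cell and are tied to actin inside the cell through beta-catenin and alpha-catenin, with p120-catenin at the membrane. Type I members include the epithelial, neural, retinal and muscle cadherins, and type II members mark vessels, glial precursors and sets of neurons. Clustered protocadherins are read from the alpha, beta and gamma gene arrays of mouse chromosome 18, where each neuron uses its own mix of promoters and so carries its own surface code. Non-clustered protocadherins lie alone in the genome and act in axon sorting and cell movement. In the cerebellum, granule neuron progenitors, from which SHH medulloblastomas arise, change their cadherins as they leave the outer layer and migrate inwards.

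Signals are given on a log2 scale, where a difference of 1 is a doubling, and the median of every array was 7.05. A probe was kept for testing when it lay above its array's median on at least 4 of 12 arrays. Of the 143 probes, 71 were kept, for 51 genes, and no probe was kept through a single group. Another 58 lay below the median on all 12 arrays, and 14 lay above it on too few. By class, 4 of 5 type I genes had a kept probe, 11 of 13 type II genes, 2 of 5 other cadherins, 24 of 54 clustered protocadherins and 10 of 14 non-clustered protocadherins. Among the genes with no kept probe were Cdh3, the placental cadherin, and Pcdh8, Pcdh15 and Pcdh18. All 4 Cdh3 probes read between 5.80 and 7.01 on the 12 arrays.

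The metastatic tumours stood apart from both primary groups over the whole table. The first principal component held 33.3% of the variance and ran from 35.6 to 75.4 in A1G metastatic tumours, against -35.3 to -17.6 in the other 8. Of the marker genes kept, 7 of 7 of sensory neurons, 5 of 7 of Schwann cells, 5 of 5 of skeletal muscle and 7 of 8 of fibroblasts were higher in A1G metastatic than A1G primary tumours. Of 6 markers of oligodendrocyte precursors 4 were lower in the metastatic tumours, and of 7 of the granule lineage 0 passed. These lists are given by their mean log2 signal beside the members below, and since whole tumours were measured, fewer cells of a type and less RNA per cell cannot be told apart.

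In A1G metastatic against A1G primary tumours, 4 of the 71 kept cadherin and protocadherin probes passed limma's test at an adjusted p under 0.05. This is 5.63% of the members, near the 4.82% of all 24443 probes tested. Pcdh21, a photoreceptor cadherin, Cdh1, the epithelial cadherin, and Cdh5, the endothelial cadherin, were higher in the metastatic tumours, a direction in which 4.04% of all probes passed. Pcdhgc3, a gamma protocadherin, was lower, as were 0.786% of all probes. The groups did not overlap for 3 probes that were higher and 5 that were lower in metastatic tumours, 11.3% of the members against 13.4% of all probes (6.69% higher and 6.7% lower). The log2 difference was below 0 for 53 of the 71 members, 74.6% against 61.5% of all probes, with a median of -0.18 for the members and -0.08 for all probes. Of 15 genes with several kept probes, 10 had the same sign in all of them and 5 did not.

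**Figure D1:**
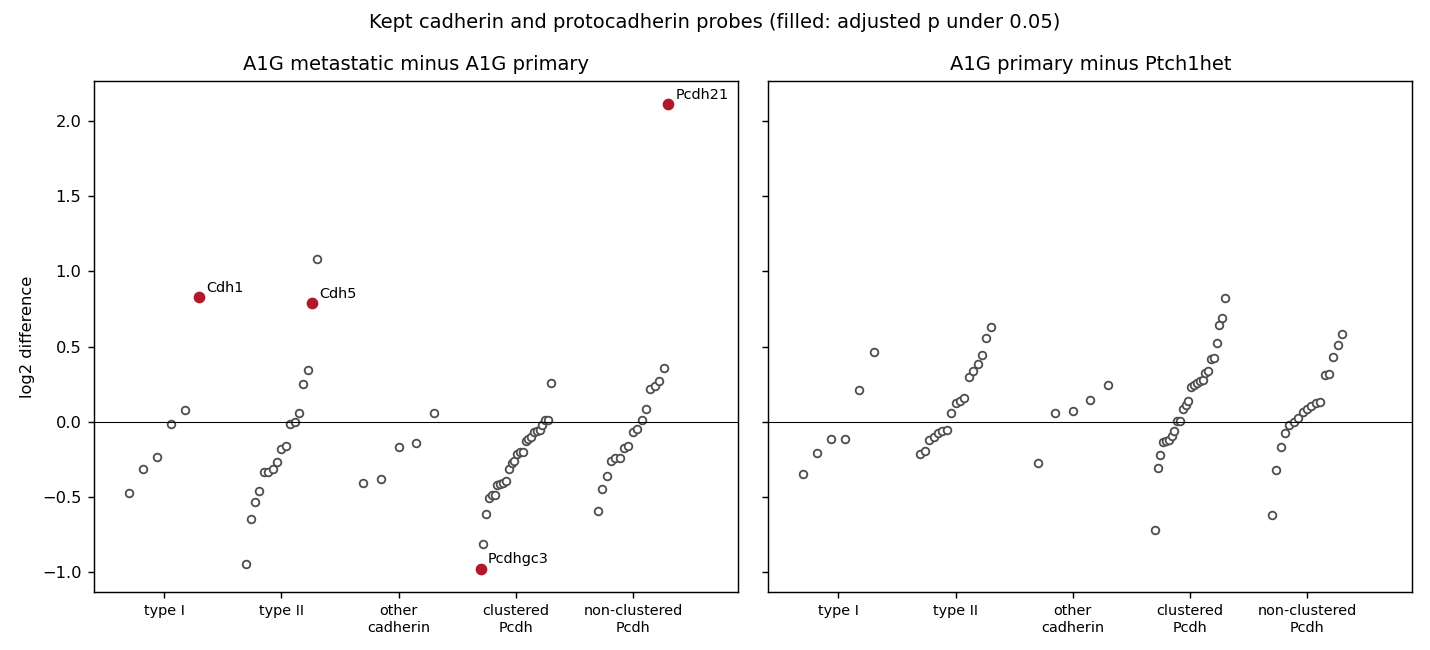
Log2 difference of each kept probe (y axis) by class of member (x axis), for A1G metastatic minus A1G primary tumours on the left and A1G primary minus Ptch1het tumours on the right; filled points passed at an adjusted p under 0.05 and are named. On the left 3 probes above 0 and 1 below passed, and 0 of 71 passed on the right.

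Of the type I cadherins, Cdh1 alone passed. Cdh1, which seals epithelia and is also present in Schwann cell junctions, lies on chromosome 8. Its brighter probe read 8.53, 9.10, 8.36 and 8.36 in A1G metastatic tumours, 7.75, 7.74, 7.79 and 7.76 in A1G primary tumours, and 8.27, 8.26, 7.84 and 7.50 in Ptch1het tumours. Every metastatic tumour lay above every primary and every Ptch1het tumour. The metastatic mean was 8.59 ± 0.35 and the primary mean 7.76 ± 0.02 (SD, n = 4 each), which differ by 0.83 on the log2 scale (SE 0.20), 1.77-fold (adjusted p = 0.0309). The difference from Ptch1het tumours was 0.62 (adjusted p = 0.0717). The other Cdh1 probe averaged 7.20 ± 0.27 in metastatic and 7.12 ± 0.33 in primary tumours, a difference of 0.08 (adjusted p = 0.876), and the mean of both probes did not pass (adjusted p = 0.111). The call was also lost without A1G primary replicate 1, 2, 3 or 4 (adjusted p = 0.0682, 0.0824, 0.0682 and 0.0764) and without A1G metastatic replicate 1 or 2 (adjusted p = 0.0546 and 0.0909). With only metastatic replicates 1 and 4, which share the genotype wording of the primary tumours, it was 0.194.

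Epithelial and choroid plexus markers were sparse in all groups. Of 6 such genes, Ttr, Folr1, Krt18 and Epcam had no kept probe, and neither Krt8 nor Kl passed. The mean of Krt8 and Kl lay between 6.78 and 7.44 in A1G metastatic, 6.77 and 7.40 in A1G primary and 6.77 and 7.13 in Ptch1het tumours. Schwann cell markers were higher in A1G metastatic tumours, as were the sensory neuron, skeletal muscle and fibroblast markers given above. The mean of 7 Schwann cell markers lay between 10.52 and 11.16 in A1G metastatic tumours, 8.02 and 8.24 in A1G primary tumours and 7.77 and 8.14 in Ptch1het tumours. A1G metastatic replicate 2, the highest in Cdh1, had the lowest metastatic mean of the Schwann cell markers, 10.52. It had the highest metastatic means of the sensory neuron and skeletal muscle markers, 12.03 and 12.99, and a fibroblast mean of 11.19. The part of any of these lists in the Cdh1 result was not tested.

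The neural cadherin Cdh2, which holds granule cell precursors and radial glia together, differed by less than its spread. Its brighter probe averaged 7.65 ± 0.27 in A1G metastatic, 7.88 ± 0.23 in A1G primary and 8.0 ± 0.36 in Ptch1het tumours (SD, n = 4). The metastatic minus primary difference was -0.23 (SE 0.20, adjusted p = 0.587). The retinal cadherin Cdh4 averaged 8.61 ± 0.58 in A1G metastatic, 9.09 ± 0.30 in A1G primary and 8.62 ± 0.69 in Ptch1het tumours, and passed in neither comparison (adjusted p = 0.502 for metastatic minus primary and 0.565 for primary minus Ptch1het).

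Cdh15, the muscle cadherin, which in mice is also found in cerebellar granule cells, had the widest spread of any kept member. It read 10.12, 11.69, 6.41 and 7.55 in Ptch1het tumours, an SD of 2.40, against a median SD of 0.33 over the kept members in that group. Replicates 1 and 2 lay far above replicates 3 and 4, the lowest of which was under the array median. The probe read 7.73, 8.97, 8.90 and 8.72 in A1G metastatic and 7.56, 9.07, 8.80 and 8.94 in A1G primary tumours, with replicate 1 the lowest in both. The metastatic minus primary difference was -0.02 (SE 0.88, adjusted p = 0.995). This SE rests on a spread shared by all 3 groups, including the wide Ptch1het group. This fit could therefore not detect a change of the size seen in Cdh1. Within the groups compared the SD was smaller, 0.58 in A1G metastatic and 0.70 in A1G primary tumours. Of markers of contractile muscle, the mean of 5 genes ran from 7.84 to 12.99 in A1G metastatic, 6.98 to 7.68 in A1G primary and 7.29 to 8.10 in Ptch1het tumours. Of the precursor markers Pax7, Myf5, Myod1 and Myog, Pax7 and Myf5 had no kept probe and neither Myod1 nor Myog passed. The mean of Myod1 and Myog lay between 7.44 and 8.31 in A1G metastatic and 7.89 and 8.47 in A1G primary tumours. Replicate 1 was the lowest in both, as in Cdh15. In Ptch1het replicates 1 to 4 this mean was 8.33, 8.93, 7.33 and 7.49, which ranks the tumours as Cdh15 did. The part of these genes in the Cdh15 values was not tested.

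**Figure D2:**
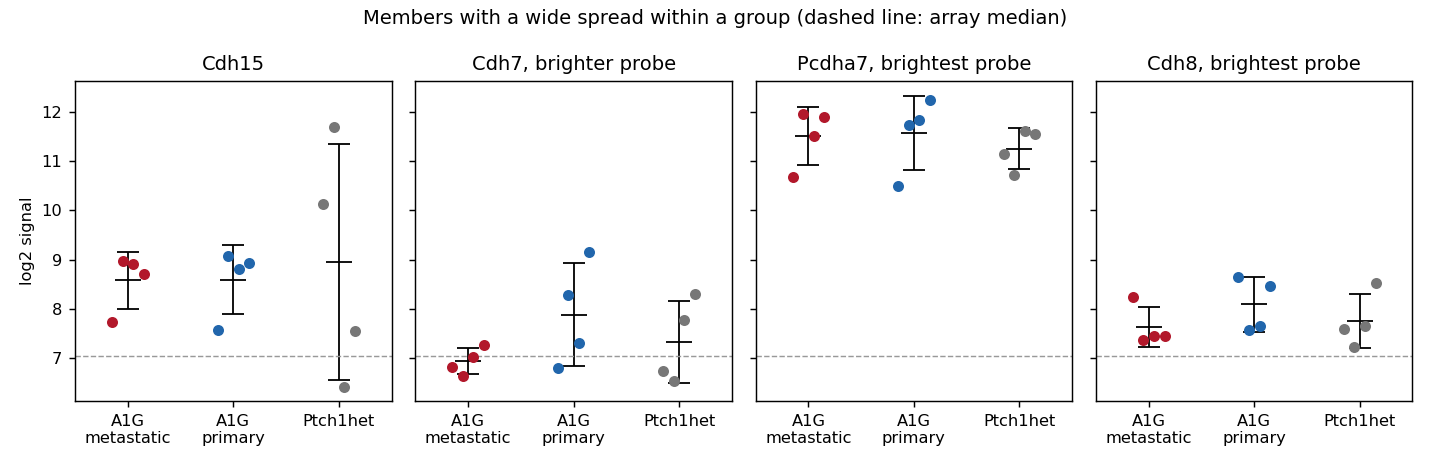
Log2 signal of each tumour (points, y axis) with the group mean and SD (bars) for Cdh15, Cdh7, Pcdha7 and Cdh8 in the 3 groups (x axis); the dashed line is the array median. Cdh15 spans 6.41 to 11.69 within the 4 Ptch1het tumours, and Cdh7 spans 6.80 to 9.16 within the 4 A1G primary tumours.

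Of the 17 type II probes kept, 1 was called higher and 0 lower in A1G metastatic against A1G primary tumours. The class had a median difference of -0.18, with 12 of 17 below 0. Of all probes, 4.04% were called higher and 0.786% lower, and 61.5% were below 0. The called probe was of Cdh5, which joins endothelial cells and lies on chromosome 8. It read 9.11, 9.52, 8.49 and 9.09 in A1G metastatic tumours, 8.42, 8.07, 8.41 and 8.15 in A1G primary tumours, and 8.58, 8.13, 7.93 and 8.20 in Ptch1het tumours. The metastatic tumours did not overlap with the primary ones, while metastatic replicate 3 lay just below the highest Ptch1het tumour. The metastatic mean was 9.05 ± 0.42 and the primary mean 8.26 ± 0.18 (SD, n = 4 each), which differ by 0.79 on the log2 scale (SE 0.21), 1.73-fold (adjusted p = 0.0468). The other Cdh5 probe averaged 8.16 ± 0.74 in metastatic and 7.07 ± 0.34 in primary tumours, a difference of 1.08 (adjusted p = 0.0752).

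The Cdh5 call lay close to the threshold. It was lost with the replicate number as a block (adjusted p = 0.0595) and without any of 9 arrays. The adjusted p was 0.0681, 0.141, 0.074 and 0.12 without A1G primary replicate 1, 2, 3 or 4, and 0.0905, 0.149 and 0.104 without A1G metastatic replicate 1, 2 or 4. It was 0.0544 and 0.0607 without Ptch1het replicate 2 or 4. Without metastatic replicate 3, the other probe passed too (adjusted p = 0.0189). Of 10 endothelial markers, Emcn passed, at 10.67 in metastatic against 9.52 in primary tumours, and 9 did not. Over the 10 markers the median metastatic minus primary difference was 0.58. Their mean lay between 8.68 and 9.44 in A1G primary and 8.48 and 9.36 in Ptch1het tumours. In A1G metastatic replicates 1 to 4 it was 9.54, 10.12, 8.69 and 9.83, highest in replicate 2 and lowest in replicate 3, as Cdh5 was. The part of vessel content in the Cdh5 result was not tested.

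Cdh7 had the lowest difference of the type II class, -0.94 (SE 0.48, adjusted p = 0.329), with a wide spread in both primary groups. Its brighter probe read 6.83, 6.64, 7.02 and 7.27 in A1G metastatic tumours, 6.80, 8.28, 7.30 and 9.16 in A1G primary tumours, and 6.73, 6.53, 7.77 and 8.29 in Ptch1het tumours. Only 1 metastatic tumour exceeded the array median, against 3 A1G primary and 2 Ptch1het tumours, and the groups overlapped. Cdh24 read 6.87, 6.57, 6.94 and 6.80 in A1G metastatic tumours, below the array median in each, against 6.96, 7.13, 7.30 and 7.12 in A1G primary tumours. The groups did not overlap, yet the difference of -0.33 (SE 0.13) did not pass (adjusted p = 0.202).

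Cdh20, Cdh22 and Cdh8, type II cadherins of the nervous system, were above the array median on all 12 arrays with their brightest probes. Cdh20 averaged 8.81 ± 0.55 in A1G metastatic, 8.82 ± 0.09 in A1G primary and 8.94 ± 0.33 in Ptch1het tumours. Its other probe gave -0.65 for metastatic minus primary (SE 0.31, adjusted p = 0.304), where the brighter probe gave -0.01. Cdh22 averaged 7.82 ± 0.40, 8.13 ± 0.41 and 8.33 ± 0.54 in A1G metastatic, A1G primary and Ptch1het tumours. The Cdh8 means were 7.63 ± 0.41, 8.09 ± 0.55 and 7.75 ± 0.55 in the same groups. Neither differed beyond its spread (adjusted p = 0.618 and 0.484 for metastatic minus primary).

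Cdh11, a mesenchymal cadherin, averaged 7.13 ± 0.35 in A1G metastatic and 6.88 ± 0.34 in A1G primary tumours (adjusted p = 0.589). Fibroblast markers differed far more: the mean of 8 lay between 11.10 and 11.36 in A1G metastatic and 8.37 and 9.48 in A1G primary tumours. Cdh6, found in regions of the developing nervous system, averaged 7.01 ± 0.32 in A1G metastatic, 7.19 ± 0.22 in A1G primary and 6.74 ± 0.37 in Ptch1het tumours. It had the lowest p of its class in A1G primary against Ptch1het tumours, at a difference of 0.44 (SE 0.21, adjusted p = 0.386).

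Cdh19, a cadherin of Schwann cell precursors, had the same sign with a kept and a dimmer probe, which differed in whether they passed. The kept probe averaged 7.36 ± 0.12 in A1G metastatic, 7.02 ± 0.29 in A1G primary and 6.88 ± 0.29 in Ptch1het tumours, and did not pass (metastatic minus primary 0.34, adjusted p = 0.338). Against Ptch1het tumours its difference was 0.48 (adjusted p = 0.103), and it passed without Ptch1het replicate 2 (adjusted p = 0.039). A dimmer probe, not kept, read 7.42, 6.69, 6.88 and 7.36 in A1G metastatic tumours, 6.33, 6.46, 6.0 and 6.31 in A1G primary tumours, and 6.24, 5.99, 6.40 and 6.23 in Ptch1het tumours. Its metastatic tumours lay above all others, but only 2 of them reached the array median. With no filter on dim probes, this probe passed against A1G primary tumours (0.81, adjusted p = 0.0214) and against Ptch1het tumours (0.87, adjusted p = 0.0118). The Schwann cell markers given above moved in the same direction, and their part in this was not tested.

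Of the other cadherins, Cdh13 and Cdh23 had kept probes. Cdh13, which is held in the membrane by a lipid anchor, averaged 8.81 ± 0.57 in A1G metastatic, 8.95 ± 0.38 in A1G primary and 9.23 ± 0.38 in Ptch1het tumours. Its 3 kept probes gave metastatic minus primary differences from -0.41 to 0.06, and none passed. Cdh23, a part of the tip links of inner ear hair cells, averaged 7.24 ± 0.03 in A1G metastatic, 7.41 ± 0.63 in A1G primary and 7.17 ± 0.25 in Ptch1het tumours. A1G primary replicate 4 was the highest at 8.31, and a further Cdh23 probe that was not kept read 8.77 in that tumour and at most 6.56 in the other 11.

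**Figure D3:**
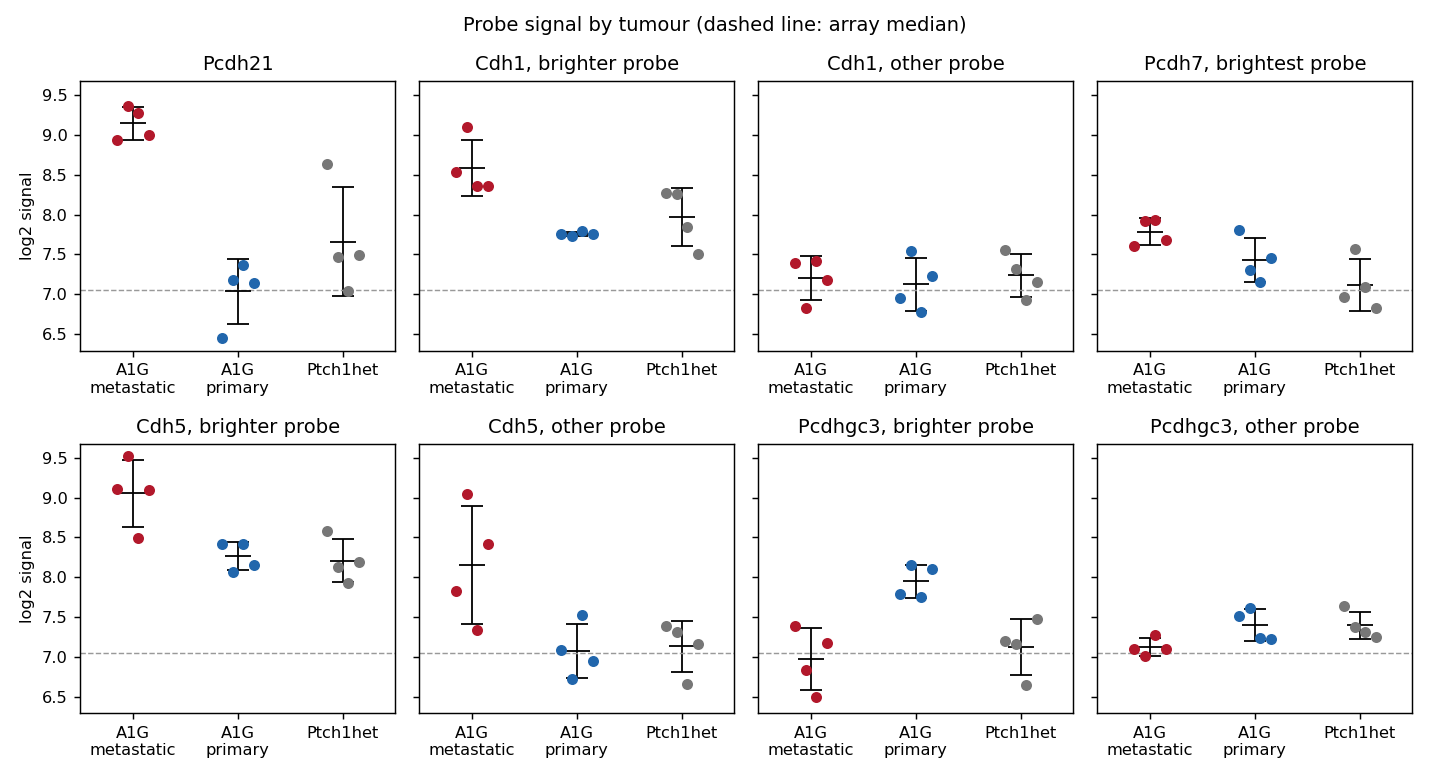
Log2 signal of each tumour (points, y axis) with the group mean and SD (bars) in the 3 groups (x axis) for Pcdh21, Pcdh7 and both kept probes of Cdh1, Cdh5 and Pcdhgc3; the dashed line is the array median. Pcdh21 lies between 8.94 and 9.37 in the metastatic tumours and between 6.44 and 7.37 in the primary ones, whereas the Cdh1 probes differ from each other in what they show.

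The clustered protocadherins leaned towards lower signal in A1G metastatic than A1G primary tumours, with 1 call. Of 26 kept probes, 23 had a difference below 0, and the median was -0.24. Of all probes, 61.5% were below 0, with a median of -0.08, and 0.786% were called lower. By array, 10 of 10 gamma probes (median -0.30), 10 of 11 beta probes (median -0.40) and 3 of 5 alpha probes (median -0.02) were below 0. The beta and gamma medians stayed below 0 in all 21 settings tried, from -0.44 to -0.21 for beta and from -0.41 to -0.23 for gamma, whereas the alpha median changed sign between settings. These probes share tumours and neighbouring genes, so their common direction is not independent evidence. Granule lineage markers had a mean between 10.27 and 10.94 in A1G metastatic and 10.60 and 11.27 in A1G primary tumours. The mean of oligodendrocyte precursor markers was at most 9.90 in A1G metastatic and at least 10.50 in A1G primary tumours. The part of either in the clustered protocadherin values was not tested.

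Pcdhgc3, a C-type isoform at the far end of the gamma array, was the called member. Its brighter probe read 7.38, 6.84, 6.50 and 7.17 in A1G metastatic tumours, 7.79, 8.15, 7.75 and 8.10 in A1G primary tumours, and 7.20, 7.17, 6.65 and 7.48 in Ptch1het tumours. The A1G primary tumours lay above all 8 others. The metastatic mean was 6.97 ± 0.39 and the primary mean 7.95 ± 0.21, a log2 difference of -0.98 (SE 0.22, adjusted p = 0.0182). No fold is given, since the metastatic mean was under the array median. The other Pcdhgc3 probe averaged 7.12 ± 0.11 in metastatic and 7.40 ± 0.20 in primary tumours and did not pass (-0.28, adjusted p = 0.327). The mean of both probes passed (-0.63, adjusted p = 0.0169). The call of the brighter probe was lost without A1G primary replicate 2 or 4 (adjusted p = 0.0644 and 0.0598). It was also lost without A1G metastatic replicate 2 (adjusted p = 0.0627) and with metastatic replicates 1 and 4 only (adjusted p = 0.248).

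The same probe was compared between A1G primary and Ptch1het tumours, a comparison that shares the A1G primary arrays with the first. Its difference there was 0.82 (SE 0.22), and the groups did not overlap, but it did not pass (adjusted p = 0.218). The other Pcdhgc3 probe gave 0.002 there (adjusted p = 0.997). The other C-type gamma isoforms, described after their values were seen, gave values of the same sign as the brighter Pcdhgc3 probe. Pcdhgc4, which keeps interneurons alive in the developing mouse nervous system, averaged 8.0 ± 0.22 in A1G metastatic, 8.48 ± 0.20 in A1G primary and 7.84 ± 0.47 in Ptch1het tumours. Pcdhgc5 averaged 9.18 ± 0.17, 9.59 ± 0.16 and 9.16 ± 0.31 in the same groups. Neither passed in metastatic minus primary (adjusted p = 0.26 and 0.218) or in primary minus Ptch1het (adjusted p = 0.268 and 0.321).

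Pcdhgb4, a B-type gamma isoform, averaged 9.25 ± 0.24 in A1G metastatic, 9.67 ± 0.23 in A1G primary and 9.42 ± 0.33 in Ptch1het tumours (metastatic minus primary -0.42, adjusted p = 0.264). In the beta array, whose genes each consist of a lone coding exon, Pcdhb3 had the lowest difference. It read 8.36, 8.50, 8.84 and 8.31 in A1G metastatic tumours, 8.75, 9.14, 10.04 and 9.35 in A1G primary tumours, and 9.0, 9.40, 9.39 and 9.16 in Ptch1het tumours. Metastatic replicate 3 overlapped with A1G primary replicate 1, and all metastatic tumours lay below all Ptch1het tumours. The metastatic minus primary difference was -0.82 (SE 0.23, adjusted p = 0.0706). It passed with the replicate number as a block (adjusted p = 0.0228) and without A1G primary replicate 1 (adjusted p = 0.0242).

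None of the 5 kept alpha probes passed in any comparison. Pcdha7 read 10.68, 11.97, 11.51 and 11.89 in A1G metastatic tumours, 10.50, 11.73, 11.84 and 12.25 in A1G primary tumours, and 11.15, 10.72, 11.61 and 11.55 in Ptch1het tumours. Replicate 1 was the lowest in both A1G groups. Pcdha6 averaged 10.03 ± 0.66 in A1G metastatic, 10.09 ± 0.58 in A1G primary and 9.76 ± 0.20 in Ptch1het tumours. All alpha isoforms end in shared constant exons, and the sources used here do not say where the probes lie, so the isoform behind each alpha and gamma value is uncertain. Pcdhac2, a C-type alpha isoform also described after its values were seen, which spaces serotonergic axons in mice, averaged 7.17 ± 0.29, 6.91 ± 0.28 and 6.63 ± 0.35 in A1G metastatic, A1G primary and Ptch1het tumours. Its difference was 0.26 for metastatic minus primary (adjusted p = 0.556) and 0.53 for metastatic minus Ptch1het (adjusted p = 0.122).

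**Figure D4:**
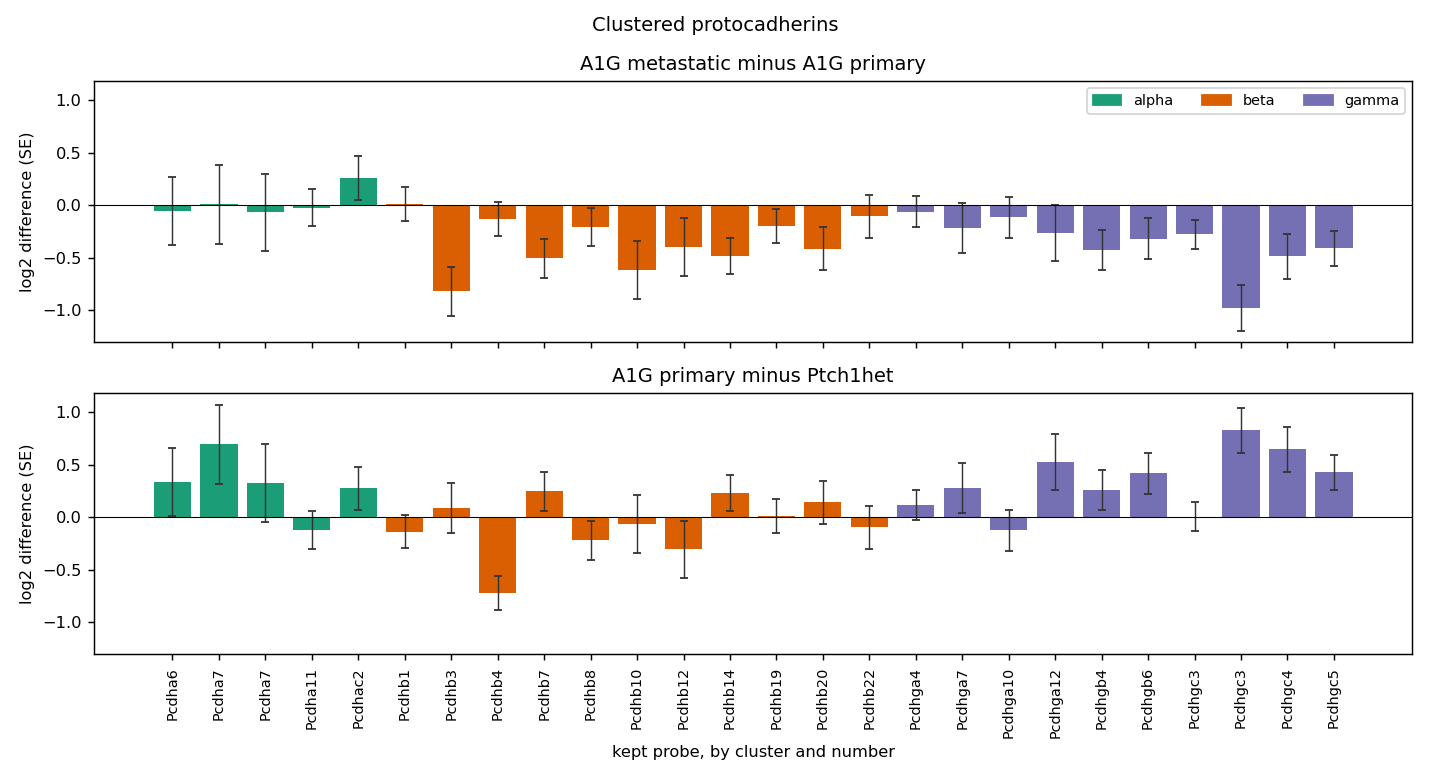
Log2 difference with its SE (bars and error bars, y axis) for the 26 kept clustered protocadherin probes, ordered by cluster (alpha, beta, gamma) and number (x axis), for A1G metastatic minus A1G primary tumours above and A1G primary minus Ptch1het tumours below. All 10 gamma bars lie below 0 in the upper panel and 9 of 10 above 0 in the lower one; both panels share the A1G primary tumours.

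Of the 17 non-clustered protocadherin probes, 1 was called higher and 0 lower in A1G metastatic against A1G primary tumours, with a median of -0.07. Of all probes, 4.04% were called higher and 0.786% lower. The called probe was of Pcdh21, now named Cdhr1, on chromosome 14. It is a cadherin of photoreceptor outer segments that is also expressed in mitral cells of the mouse olfactory bulb. It read 8.94, 9.37, 9.28 and 9.0 in A1G metastatic tumours, 6.44, 7.18, 7.37 and 7.15 in A1G primary tumours, and 8.63, 7.47, 7.04 and 7.49 in Ptch1het tumours. All metastatic tumours lay above all others, and Ptch1het replicate 1 was the nearest. The metastatic mean was 9.15 ± 0.21 and the primary mean 7.03 ± 0.40, a log2 difference of 2.11 (SE 0.30, adjusted p = 0.000808). No fold is given against the primary tumours, whose mean was just under the array median. Pcdh21 passed in all 20 settings that gave it a value, with adjusted p from 8.28e-05 to 0.0251.

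The peripheral markers were also higher in A1G metastatic tumours as a group. Sensory neuron markers had a mean between 10.65 and 12.03 in A1G metastatic, 6.77 and 7.14 in A1G primary and 6.84 and 7.32 in Ptch1het tumours. In Ptch1het replicate 1, the nearest to the metastatic tumours in Pcdh21, that mean was 6.84, the lowest of its group. In A1G metastatic replicates 1 to 4 it was 11.47, 12.03, 11.28 and 10.65, and replicate 2 was also the highest in Pcdh21. The part of these markers in the Pcdh21 result, like that of the Schwann cell, fibroblast and muscle markers given above, was not tested.

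Pcdh7, which binds a phosphatase inhibitor inside the cell, was higher in A1G metastatic than Ptch1het tumours, as Pcdh21 was. For these 2 of the 3 members higher in that comparison (no window was matched for Cdh5), RefSeq's promoter windows (build GRCm38.p6, 250 bases before to 50 after the gene's start) were searched for E-boxes on both strands. The letters CANNTG, the E-box that many helix-loop-helix factors read, are in capitals. The Cdhr1 window is chr14:37098298-37098597 on the minus strand and holds 2 E-boxes, and the Pcdh7 window is chr5:57717831-57718130 on the plus strand and holds 1.
Cdhr1: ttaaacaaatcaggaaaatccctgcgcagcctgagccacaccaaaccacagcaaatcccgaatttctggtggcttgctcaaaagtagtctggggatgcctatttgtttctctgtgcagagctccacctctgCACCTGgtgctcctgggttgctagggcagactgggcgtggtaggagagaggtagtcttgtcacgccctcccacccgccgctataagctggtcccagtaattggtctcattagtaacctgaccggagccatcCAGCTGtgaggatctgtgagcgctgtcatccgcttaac
Pcdh7: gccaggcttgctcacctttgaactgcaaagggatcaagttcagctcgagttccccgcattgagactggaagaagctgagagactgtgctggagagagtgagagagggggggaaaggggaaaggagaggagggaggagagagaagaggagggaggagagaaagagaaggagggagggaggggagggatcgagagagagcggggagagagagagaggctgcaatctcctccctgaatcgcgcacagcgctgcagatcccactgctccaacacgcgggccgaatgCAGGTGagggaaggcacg
Each window holds CAGGTG once, read on either strand, the form of E-box that Snail and Zeb repressors bind in cadherin promoters; it is contained in CANNTG. It lay in 7 of the 27 promoter windows found for 24 of the 91 member genes and in 20.2% of all 32851 windows of this length. CANNTG of any form lay in 17 of the 27 and in 72.3% of all. TAATCC, the letters read by the photoreceptor factor Crx, lay in neither window, in 2 of the 27 and in 7.06% of all. These matches describe letters and not binding.

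Pcdh7 read 7.61, 7.92, 7.93 and 7.68 in A1G metastatic tumours, 7.80, 7.30, 7.15 and 7.46 in A1G primary tumours, and 6.97, 7.57, 7.09 and 6.82 in Ptch1het tumours with its brighter probe. The metastatic tumours did not overlap with the Ptch1het tumours and overlapped with the primary ones. Against A1G primary tumours the difference was 0.36 (SE 0.19, adjusted p = 0.345). The other Pcdh7 probe went the opposite way there, at -0.36 (adjusted p = 0.449).

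Pcdh20 read 8.08, 7.41, 7.90 and 8.07 in A1G metastatic tumours, 9.02, 8.15, 8.26 and 8.40 in A1G primary tumours, and 9.45, 7.66, 8.13 and 8.08 in Ptch1het tumours. The metastatic tumours lay below all A1G primary tumours, but the difference of -0.59 (SE 0.33) did not pass (adjusted p = 0.378). Pcdh9, a neuronal protocadherin, read 10.21 and 9.91 in replicate 4 of the A1G metastatic and A1G primary groups, the highest of each. Its means were 9.21 ± 0.71 in A1G metastatic, 9.13 ± 0.55 in A1G primary and 9.15 ± 0.45 in Ptch1het tumours, and none of its 4 kept probes passed in any comparison.

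Pcdh10, Pcdh17 and Pcdh19, protocadherins of the same delta family that act in axon growth and sorting, did not pass between the A1G groups. Pcdh10 averaged 7.48 ± 0.28 in A1G metastatic, 7.74 ± 0.28 in A1G primary and 7.65 ± 0.40 in Ptch1het tumours (metastatic minus primary -0.26, adjusted p = 0.57). All 3 of its kept probes were below 0 in this comparison. Pcdh17 averaged 8.47 ± 0.55, 8.24 ± 0.11 and 7.81 ± 0.59 in A1G metastatic, A1G primary and Ptch1het tumours (metastatic minus primary 0.24, adjusted p = 0.722). X-linked Pcdh19, mutated in an epilepsy of females, averaged 7.82 ± 0.18, 7.87 ± 0.33 and 7.28 ± 0.48 in the same groups. It had the lowest p of its class in A1G primary against Ptch1het tumours, with a difference of 0.59 (SE 0.23, adjusted p = 0.323).

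Pcdh12, a protocadherin of endothelial cells, averaged 8.54 ± 0.38 in A1G metastatic and 8.27 ± 0.38 in A1G primary tumours. Its difference of 0.27 (SE 0.33, adjusted p = 0.72) stands beside that of 0.79 for Cdh5, the other endothelial member. Pcdh1 averaged 7.78 ± 0.33 in A1G metastatic, 7.56 ± 0.47 in A1G primary and 7.88 ± 0.30 in Ptch1het tumours, and passed in no comparison.

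In A1G primary against Ptch1het tumours, 0 of the 71 members passed limma's test, as 0.0245% of all probes did (0.00409% higher and 0.0205% lower). At an unadjusted p under 0.05 there were 6 of the 71 members and 3222 of all 24443 probes. After adjustment 0 members passed in any of the settings tried. The groups did not overlap for the brighter Pcdhgc3 probe, higher in A1G primary tumours, and Pcdhb4, lower. This is 2.82% of the members against 6.66% of all probes (2.71% higher and 3.95% lower). Among the gamma probes 9 of 10 were above 0 with a median of 0.35, against 0.11 for all members and -0.02 for all probes, of which 53.3% were below 0. The beta probes were split, 5 above and 6 below 0. Pcdhb4 read 7.52, 7.32, 7.52 and 7.76 in A1G primary tumours against 8.22, 8.50, 7.86 and 8.40 in Ptch1het tumours, a difference of -0.72 (SE 0.16, adjusted p = 0.154).

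In A1G metastatic against Ptch1het tumours, where genotype and tumour site both differ, 4 of the 71 members passed, 5.63% against 8.8% of all probes. Of the members 3 were higher and 1 lower, where 5.36% of all probes were higher and 3.44% lower. The groups did not overlap for 3 members that were higher and 4 that were lower, 9.86% against 14.9% of all probes (6.99% higher and 7.91% lower). This comparison uses the metastatic arrays of the first. Pcdh21 was higher at 9.15 ± 0.21 in A1G metastatic and 7.66 ± 0.68 in Ptch1het tumours, a difference of 1.49 (SE 0.30), which is 2.81-fold (adjusted p = 0.00876). Cdh5 was higher by 0.85 (adjusted p = 0.0248) and Pcdh7 by 0.67 (adjusted p = 0.0417). The Pcdh7 call rests on 1 of its 2 kept probes: the other gave 0.15 (adjusted p = 0.702), and the mean of both gave 0.41 (adjusted p = 0.0728). Pcdhb4 was lower at 7.40 ± 0.18 in A1G metastatic and 8.25 ± 0.28 in Ptch1het tumours, a difference of -0.85 (SE 0.16, adjusted p = 0.00698). Its 4 metastatic tumours read 7.31, 7.21, 7.60 and 7.48, all below the 4 Ptch1het tumours, and overlapped with the A1G primary tumours. All 11 beta probes were below 0 in this comparison, with a median of -0.27, as were 60.7% of all probes.

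The Pcdh21 and Pcdhb4 calls held with each of the 12 arrays left out in turn. Pcdh21, Pcdhb4, Cdh5 and Pcdh7 did not pass with the replicate number as a block (adjusted p = 0.0514, 0.0729, 0.0677 and 0.0781). With metastatic replicates 1 and 4 only, the adjusted p was 0.0998 for Pcdh21 and 0.0502 for Pcdhb4. Cdh5 did not pass without A1G metastatic replicate 2 or 4 (adjusted p = 0.0801 and 0.0634) or Ptch1het replicate 2 or 3 (adjusted p = 0.0502 and 0.0632), and its other probe passed without A1G metastatic replicate 3 (adjusted p = 0.018). Pcdh7 did not pass without A1G metastatic replicate 2, 3 or 4 (adjusted p = 0.118, 0.0781 and 0.0752), Ptch1het replicate 1, 3 or 4 (adjusted p = 0.0937, 0.0767 and 0.0857) or A1G primary replicate 2 or 4 (adjusted p = 0.0562 and 0.0542). Pcdhb3 differed by -0.73 (adjusted p = 0.0693), and passed without A1G primary replicate 1 or 3 (adjusted p = 0.0476 and 0.0278).

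The proteins that tie cadherins to the cell interior or regulate them were read from a list of 27 gene symbols, of which 21 were kept. Afdn is on the list under a former symbol too. In A1G metastatic against A1G primary tumours 2 were higher and 1 lower, where 4.04% of all probes were higher and 0.786% lower. Vcl encodes vinculin, which links alpha-catenin to actin under tension, and averaged 11.64 ± 0.32 in A1G metastatic and 10.48 ± 0.24 in A1G primary tumours (1.16, adjusted p = 0.0275). Ctnnal1, an alpha-catenin-like protein, averaged 11.95 ± 0.10 in A1G metastatic and 11.39 ± 0.08 in A1G primary tumours (0.56, adjusted p = 0.0175). Ctnnd2, a neuronal relative of p120-catenin, was lower at 10.69 ± 0.27 in A1G metastatic and 11.47 ± 0.12 in A1G primary tumours (a difference of -0.79, adjusted p = 0.0155). The core catenins did not pass: the differences were 0.27 for Ctnnb1, 0.43 for Ctnna1, -0.16 for Ctnna2 and -0.10 for Ctnnd1. In A1G primary against Ptch1het tumours 0 of the 21 passed, and in A1G metastatic against Ptch1het tumours 1 was higher, Ctnnal1 (0.63, adjusted p = 0.00734).

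Of 25 genes from the rest of the cadherin superfamily (Celsr, Fat, Dachsous, Cdhr, desmosomal and calsyntenin genes and Ret), 12 were kept. Cdhr1 is on this list, but its Pcdh21 probe, a member, was not counted here. None of the 12 passed in A1G metastatic against A1G primary or in A1G primary against Ptch1het tumours. In A1G metastatic against Ptch1het tumours 3 were higher and 0 lower, where 5.36% of all probes were higher and 3.44% lower. Celsr1 and Celsr3, atypical cadherins of planar polarity and axon guidance, differed by 1.02 (adjusted p = 0.0445) and 0.78 (adjusted p = 0.0297). Ret, the receptor of GDNF-family ligands, differed by 2.46 (adjusted p = 0.00901).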

How the data were processed

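Total RNA of 12 tumours was labelled and hybridized to Illumina arrays, per the labels' protocols. The deposited table holds probe intensity on a linear scale, already normalized between arrays by the authors, as array medians of 187 show. How they did so is not stated in the sources used. Symbols came from a second deposited table. Its 24 per-array columns, named by chip and position on 2 chips of 6 arrays, match no sample label and were not used. Each array's chip is therefore unknown here, and chip was not tested as a batch.

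In limma 3.58.1 (R 4.3.3), normexp (offset 50) removed background from the intensities, and quantile normalization and log2 followed. Of 45281 probes, 24443 (54.0%) were kept. One model with 3 groups was fitted to all arrays (lmFit, eBayes; 9 residual and 3.93 prior degrees of freedom) with Benjamini-Hochberg adjustment over the kept probes. Each gene is described by its brightest kept probe. The fit was tested on simulated data.

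Named genes were the called members, those of each class with the highest mean signal or smallest p, and a list of well-known members. The members and lists were chosen with earlier results of these data known. Same-numbered A1G metastatic and primary tumours deviated together (correlations 0.45, 0.17, 0.20 and 0.28 over the kept probes). Differently numbered ones ran from -0.32 to 0.16. The numbers may therefore mark pairs, which the labels do not state. The differences, calls and shares given are unpaired, and blocked values are given where they change a call. With the block, 8.99% of all probes passed between these groups, against 4.82% without it. Alternatives covered background, normalization, filter, probes per gene, arrays fitted, block and left-out arrays. The 4 arrays per group limit precision.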

Additional observations from a re-analysis of the deposited data

Results flagged for a closer look

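In 102 groups of 4 tumours, from 34 kept probes of the genes described, 4 groups held a tumour far from the other 3 by Dixon's test; chance alone gives about 1 in 20. Cdh20 read 9.62 in A1G metastatic replicate 3, against 8.45 to 8.61 in the other metastatic tumours. Cdh8 read 8.24 in A1G metastatic replicate 1, against 7.37 to 7.45 in the others. Cdh4 read 7.59 in Ptch1het replicate 2, against 8.91 to 9.06, and Cdh11 read 6.58 in Ptch1het replicate 1, against 7.05 to 7.10. None of these 4 genes was called in any comparison.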

How the results depend on the processing

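No result of a single gene reversed its sign past the threshold. The 4 members called in A1G metastatic against A1G primary tumours became 1 with probes above the median on all 12 arrays, 2 with the mean of a gene's kept probes, and 1 with metastatic replicates 1 and 4 only, a setting chosen after seeing the data. Leaving out each array in turn gave 1 to 5. With the replicate block 4 members passed, 3 of them shared with the fit without it: Cdh5 was lost and Pcdhb3 gained, and no other call between these groups changed. Over all probes, 987 were higher and 192 lower, against 432 and 100 with the stricter filter, 1390 and 807 with the block, 519 and 14 with metastatic replicates 1 and 4 only, and 783 to 1288 in all with an array left out.

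The 4 members called in A1G metastatic against Ptch1het tumours became 2 with the stricter filter, 0 with the replicate block, 1 with metastatic replicates 1 and 4 only, and 2 to 5 with an array left out. Same-numbered correlations ran from -0.06 to 0.10 between these groups and from -0.02 to 0.33 between A1G primary and Ptch1het tumours. The labels state no pairs here either. Over all probes, 1310 were higher and 840 lower, against 966 and 314 with these 2 groups alone, 833 and 153 with the block, 589 and 144 with metastatic replicates 1 and 4 only, and 1031 to 2224 with an array left out. In A1G primary against Ptch1het tumours 0 members passed in every setting run, and 4 to 43 of all probes with an array left out, the 43 without Ptch1het replicate 4. Of the 8 called results, 49 settings lost a call and 115 kept it. Signal near the array median limits what Cdh11, Cdh24 and Pcdhac2 can show.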

Other observations

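A Pcdha10 probe that was not kept read 7.98 in Ptch1het replicate 4 and at most 6.79 in the other 11 tumours.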
